A study of Mus musculus with 6 samples.

Results

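The epidermal differentiation complex is a cluster of genes on mouse chromosome 3 that encode proteins of the outer epidermis. Its members were the protein-coding genes of chromosome 3 whose symbols begin with Lce, Sprr or S100a, together with Lor, Ivl, Flg, Flg2, Rptn, Hrnr, Tchh, Tchhl1 and Crnn. This rule used no measured value and gave 59 of the 21938 protein-coding genes of the mm10 annotation. They comprised 21 Lce genes, 15 Sprr genes, 14 S100a genes, 7 genes of the fused-type S100 family and the pair Lor and Ivl. One of the Sprr genes, Sprr2j-ps, is protein-coding in the annotation used and a pseudogene in RefSeq.

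Open chromatin was mapped in palates of C57BL/6 mice at the embryonic stage E14.5 by ATAC-seq, an assay in which a transposase cuts and tags DNA that nucleosomes leave free. The palatal epithelium was loosened with trypsin and peeled off by hand, and what remained, mostly mesenchyme, served as the control. The peeled sheet holds the basal layer and the periderm together, so neither layer was measured on its own. Each tissue had 3 replicate libraries from wild-type embryos with no other treatment, each made from about 20000 cells pooled from several embryos. The sources disagree on the pooling: the series text gives 3 embryos, the sample protocols 5 palatal shelves and the published methods a different number of embryos.

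A complex of this kind works at the end of keratinocyte differentiation. Loricrin, involucrin and the small proline-rich (Sprr) and late cornified envelope (Lce) proteins are cross-linked by transglutaminases beneath the plasma membrane to form the cornified envelope, and filaggrin bundles keratin filaments. The S100a proteins are small calcium-binding proteins, many of which are made in tissues other than the epidermis. Involucrin and several Sprr promoters are textbook targets of AP-1 factors.

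The deposited data are 6 lists of peak positions, 1 per library, without scores. The epithelium lists held 270003, 349322 and 296695 peaks and the mesenchyme lists 295141, 341741 and 315468. Chromosome 3 held 4.07, 4.33 and 4.25% of the epithelium peaks and 4.02, 3.90 and 4.12% of the mesenchyme peaks. Read depth is unknown from such lists, so a missing peak marks a place where none was called, and not closed chromatin. A list entry also cannot separate fewer cells of a type from less accessible DNA per cell. Among the markers examined outside the complex, 3 passed the genome-wide test described below, all with more peaks in epithelium: Trp63, the master factor of stratified epithelium (25, 26 and 15 peaks in the epithelium libraries and 4, 12 and 5 in the mesenchyme libraries; log2 difference 1.68, adjusted p = 0.0256, limma), Dsp, a desmosome component (16, 15 and 12 against 5, 5 and 4; 1.49, adjusted p = 0.0256, limma), and Serpinb2, a serpin of differentiating keratinocytes (3, 6 and 3 against 0, 0 and 0; 2.29, adjusted p = 0.0256, limma). With any 1 library left out, the adjusted p of Dsp and Serpinb2 rose above the threshold (0.0693 to 0.186 and 0.0674 to 0.167, limma), and that of Trp63 did except without epithelium replicate 3 or mesenchyme replicate 2 (0.0334 to 0.189, limma). Serpinb2 was 1 of 32 cornified envelope and late differentiation genes examined. Of the 30 of these tested, 16 log2 differences lay above 0 and 14 below, with a median of 0.02. Trp63 was 1 of 28 transcription factors of keratinocyte differentiation, with 19 above 0 and 9 below. Dsp was 1 of 12 basal epithelium markers, with 10 above 0 and 2 below. None of the 11 periderm, 14 mesenchyme, 12 immune, 8 endothelial, 7 muscle or 7 nerve and glia markers passed in either direction. Among them, at an unadjusted p under 0.05, 2 mesenchyme markers, 1 periderm marker and 1 immune marker had fewer peaks in epithelium. Of 229 regions near mesenchyme markers, 13 had peaks in every mesenchyme library and no epithelium library, and 3 had the reverse. Over all regions the shares were 2.2 and 2.98%.

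The sequences on which the complex's results turn are its promoters and the regions found in a single tissue. The promoters below are the 250 bases before the RefSeq start, read 5′ to 3′ on the gene's strand, from build GRCm38.p6 (mm10). They were chosen to set promoters with a TATA box and an AP-1 match beside one promoter of a broadly expressed S100a gene. Capitals mark matches to the motifs named further on.
Sprr1a (chr3:92485882-92486131, minus strand): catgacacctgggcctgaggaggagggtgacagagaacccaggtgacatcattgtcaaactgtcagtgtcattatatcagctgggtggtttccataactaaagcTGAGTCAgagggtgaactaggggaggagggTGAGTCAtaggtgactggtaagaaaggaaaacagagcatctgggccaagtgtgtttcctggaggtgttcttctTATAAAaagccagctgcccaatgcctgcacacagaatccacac
Sprr1b (chr3:92438780-92439029, minus strand): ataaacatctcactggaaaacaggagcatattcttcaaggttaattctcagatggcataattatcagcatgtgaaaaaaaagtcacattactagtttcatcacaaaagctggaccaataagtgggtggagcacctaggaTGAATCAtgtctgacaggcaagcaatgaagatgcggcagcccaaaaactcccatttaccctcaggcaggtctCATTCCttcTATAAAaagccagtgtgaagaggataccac
Sprr2d (chr3:92338890-92339139, plus strand): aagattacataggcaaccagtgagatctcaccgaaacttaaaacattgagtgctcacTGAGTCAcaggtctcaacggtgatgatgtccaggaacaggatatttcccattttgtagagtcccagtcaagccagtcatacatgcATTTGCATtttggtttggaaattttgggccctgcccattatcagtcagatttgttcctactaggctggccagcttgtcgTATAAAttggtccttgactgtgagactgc
Lor (chr3:92083143-92083392, minus strand): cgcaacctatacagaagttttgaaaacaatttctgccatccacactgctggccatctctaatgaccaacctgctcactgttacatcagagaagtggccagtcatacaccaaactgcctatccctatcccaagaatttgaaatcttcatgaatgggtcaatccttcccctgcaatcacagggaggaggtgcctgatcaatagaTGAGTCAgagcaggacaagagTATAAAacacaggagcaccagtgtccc
Flg (chr3:93273296-93273545, plus strand): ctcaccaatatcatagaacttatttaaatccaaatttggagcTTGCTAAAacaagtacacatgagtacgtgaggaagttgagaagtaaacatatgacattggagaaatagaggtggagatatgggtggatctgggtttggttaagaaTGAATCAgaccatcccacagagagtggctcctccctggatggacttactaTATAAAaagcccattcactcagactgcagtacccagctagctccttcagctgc
S100a11 (chr3:93520246-93520495, plus strand): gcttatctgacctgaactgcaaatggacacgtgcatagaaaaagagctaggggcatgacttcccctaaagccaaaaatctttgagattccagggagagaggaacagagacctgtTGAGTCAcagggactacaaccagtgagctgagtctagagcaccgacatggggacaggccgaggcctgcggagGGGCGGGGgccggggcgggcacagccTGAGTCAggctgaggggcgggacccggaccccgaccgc
Sprr1a, Sprr1b, Sprr2d, Lor and Flg each carry TATAAA close to the start and an AP-1 match upstream of it, and Sprr1a carries 2 AP-1 matches. S100a11 has 2 AP-1 matches and a KLF-type GC box, and no TATAAA. Of these 6 promoters, that of S100a11 overlapped a peak in all 6 libraries, that of Sprr1a in the 3 epithelium libraries only, that of Lor in 1 epithelium library, and those of Sprr1b, Sprr2d and Flg in none.

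Regions found in a single tissue are shown by the central 200 bases of 4 examples in sequence that was unique within the complex, on the plus strand of mm10. Capitals again mark motif matches.
S100a6 region (chr3:90629354-90629553): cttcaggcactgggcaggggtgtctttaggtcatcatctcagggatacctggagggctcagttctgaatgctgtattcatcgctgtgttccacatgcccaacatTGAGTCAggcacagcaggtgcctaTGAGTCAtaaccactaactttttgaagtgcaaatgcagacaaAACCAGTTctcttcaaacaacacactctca
Lor region (chr3:92091192-92091391): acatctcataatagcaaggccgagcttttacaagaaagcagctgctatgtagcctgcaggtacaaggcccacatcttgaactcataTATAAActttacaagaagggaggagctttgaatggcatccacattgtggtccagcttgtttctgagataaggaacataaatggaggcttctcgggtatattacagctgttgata
Lce1b region (chr3:92653845-92654044): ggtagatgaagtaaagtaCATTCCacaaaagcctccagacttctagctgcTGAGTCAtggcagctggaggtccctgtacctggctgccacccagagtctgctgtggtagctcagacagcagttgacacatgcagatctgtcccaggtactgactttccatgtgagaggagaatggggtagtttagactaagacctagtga
S100a11 region (chr3:93530569-93530768): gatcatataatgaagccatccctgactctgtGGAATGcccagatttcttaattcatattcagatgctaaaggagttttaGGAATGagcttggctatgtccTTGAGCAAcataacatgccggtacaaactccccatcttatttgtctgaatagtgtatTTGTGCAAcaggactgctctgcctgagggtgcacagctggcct
The S100a6 region holds 2 AP-1 matches and 1 GRHL match, and the Lce1b region 1 AP-1 and 1 TEAD match. The S100a11 region holds 2 C/EBP and 2 TEAD matches. In the Lor region the capitals mark TATAAA alone.

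The first question was whether the complex carried more peaks in the epithelium than in the mesenchyme. A peak was given to the gene with the nearest start when its midpoint lay in the gene body or within 20 kb of the start. The 59 genes received 153, 177 and 160 peaks in the epithelium libraries and 133, 154 and 139 in the mesenchyme libraries. These raw sums overlapped, with 153 in epithelium replicate 1 and 154 in mesenchyme replicate 2. After scaling each list to the mean list length, this came to 167 ± 9.35 peaks in epithelium and 139 ± 1.80 in mesenchyme (mean ± SD, n = 3 each), and the scaled sums did not overlap. As a share of all peaks on chromosome 3, the genes held 1.39, 1.17 and 1.27% in epithelium and 1.12, 1.15 and 1.07% in mesenchyme, again without overlap, although the second epithelium and second mesenchyme libraries differed little. No p-value is given for this sum, because it runs over a chosen set of genes.

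Gene by gene, no member passed. Of the 59 genes, 36 averaged 1 peak or more per library and were tested with limma on log2(scaled peaks + 1), with Benjamini-Hochberg adjustment over 19502 genes. The other 23 were too sparse, and 3 of them (Sprr2i, Sprr2k and Lce6a) had no peak in any library. Across all genes 21 had more and 6 had fewer peaks in epithelium at an adjusted p under 0.05, which is 0.138% of those tested, and 0 of the 36 members were among them. The 21 fell to 0 without epithelium replicate 1 or 2 and to between 3 and 7 without any other library, and the 6 to 1 or 0, with 0 members in every case. At an unadjusted p under 0.05, 4 members had more peaks in epithelium against 5.36% of all genes and 1 had fewer against 6.21%. The median log2 difference was 0.33 over the 36 members, of which 24 lay above 0, and -0.02 over all genes tested. That median was -0.01 in the 17 members with a mean of at least 3 peaks, so the shift of the median rested on the genes with fewer peaks. The summed difference was not confined to such genes. Sprr2a1, Sprr2a2 and Sprr2a3 together had 32.1 ± 6.48 scaled peaks in epithelium and 19.1 ± 6.52 in mesenchyme, and S100a10 with S100a11 16.1 ± 1.79 and 9.75 ± 1.99.

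**Figure D1:**
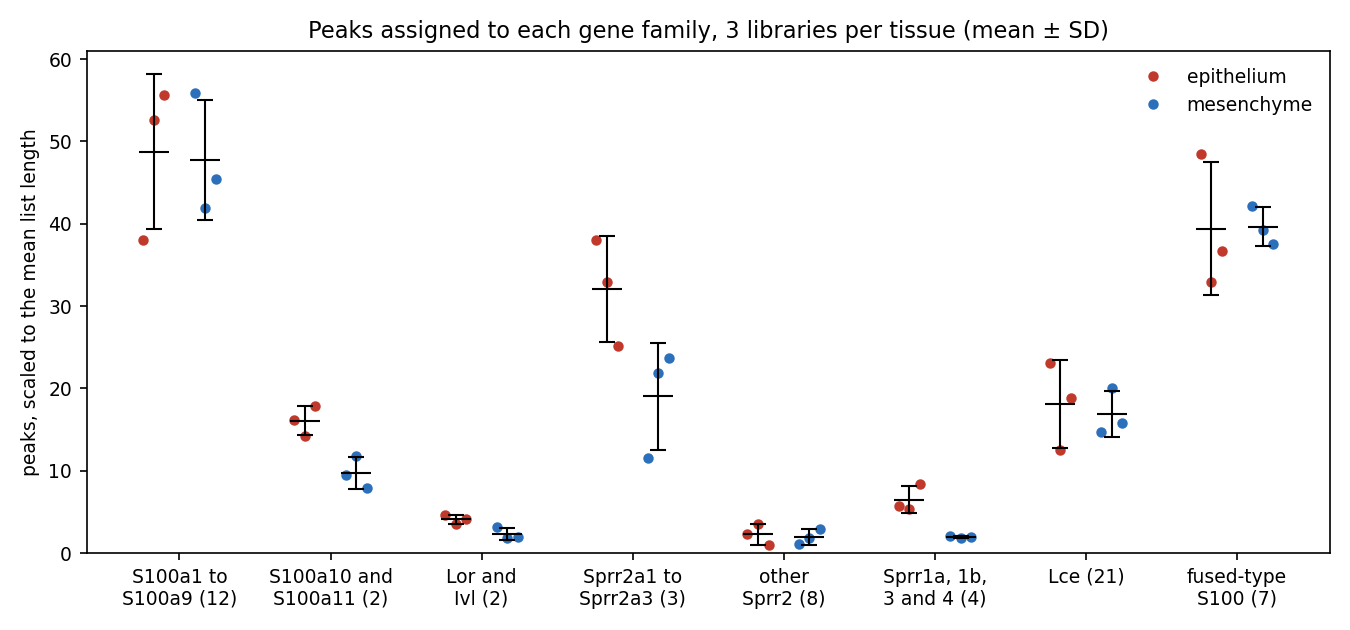
Peaks assigned to each gene family in each library (y axis, peaks scaled to the mean list length); the number of genes is given in parentheses below each family, points are libraries, and bars are the mean ± SD of 3. Epithelium points all exceed mesenchyme points for S100a10 and S100a11, for Lor and Ivl, for Sprr2a1 to Sprr2a3 and for Sprr1a, Sprr1b, Sprr3 and Sprr4. The points of the other groups overlap, among them the fused-type S100 and Lce genes.

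The families differed in their share of this. The Sprr genes had 40, 47 and 33 peaks in epithelium and 14, 28 and 29 in mesenchyme (scaled 40.9 ± 5.81 and 23.0 ± 7.27). The fused-type S100 genes had 42, 37 and 35 peaks in epithelium and 40, 43 and 38 in mesenchyme. The Lce genes, 21 in number, had only 20, 14 and 18 against 14, 22 and 16. Thus the Sprr groups did not overlap and the other 2 did. Loricrin, the main protein of the cornified envelope, is encoded by Lor, which had 3, 2 and 2 peaks in epithelium and 1, 2 and 1 in mesenchyme. Ivl, which encodes involucrin, had 1, 2 and 2 against 2, 0 and 1. The groups overlapped for both genes, although their sum, 4 peaks in every epithelium library and 3, 2 and 2 in mesenchyme, did not.

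Density along the chromosome was also counted, without assigning peaks to genes. Per 100 kb of the chromosome, the stretch from Lor to Lce1m held 9.04 ± 1.64 scaled peaks in epithelium and 5.87 ± 1.10 in mesenchyme, while the whole of chromosome 3 held 8.21 ± 0.252 and 7.81 ± 0.210. Within the stretch from Lor to Lce1m, Sprr2a1 to Sprr2a3 held 38.4 ± 7.62 and 21.7 ± 7.94, in largely repeated sequence described below. Its part from Lce6a to Lce1m held 6.31 ± 2.07 and 5.29 ± 0.961. In the stretch from S100a1 to S100a9 the densities were 25.5 ± 4.83 and 25.5 ± 4.23. From Crnn to Tchhl1 they were 13.6 ± 3.55 and 13.2 ± 1.15, and over the whole interval from S100a1 to S100a10 8.23 ± 0.578 and 6.46 ± 0.0404.

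**Figure D2:**
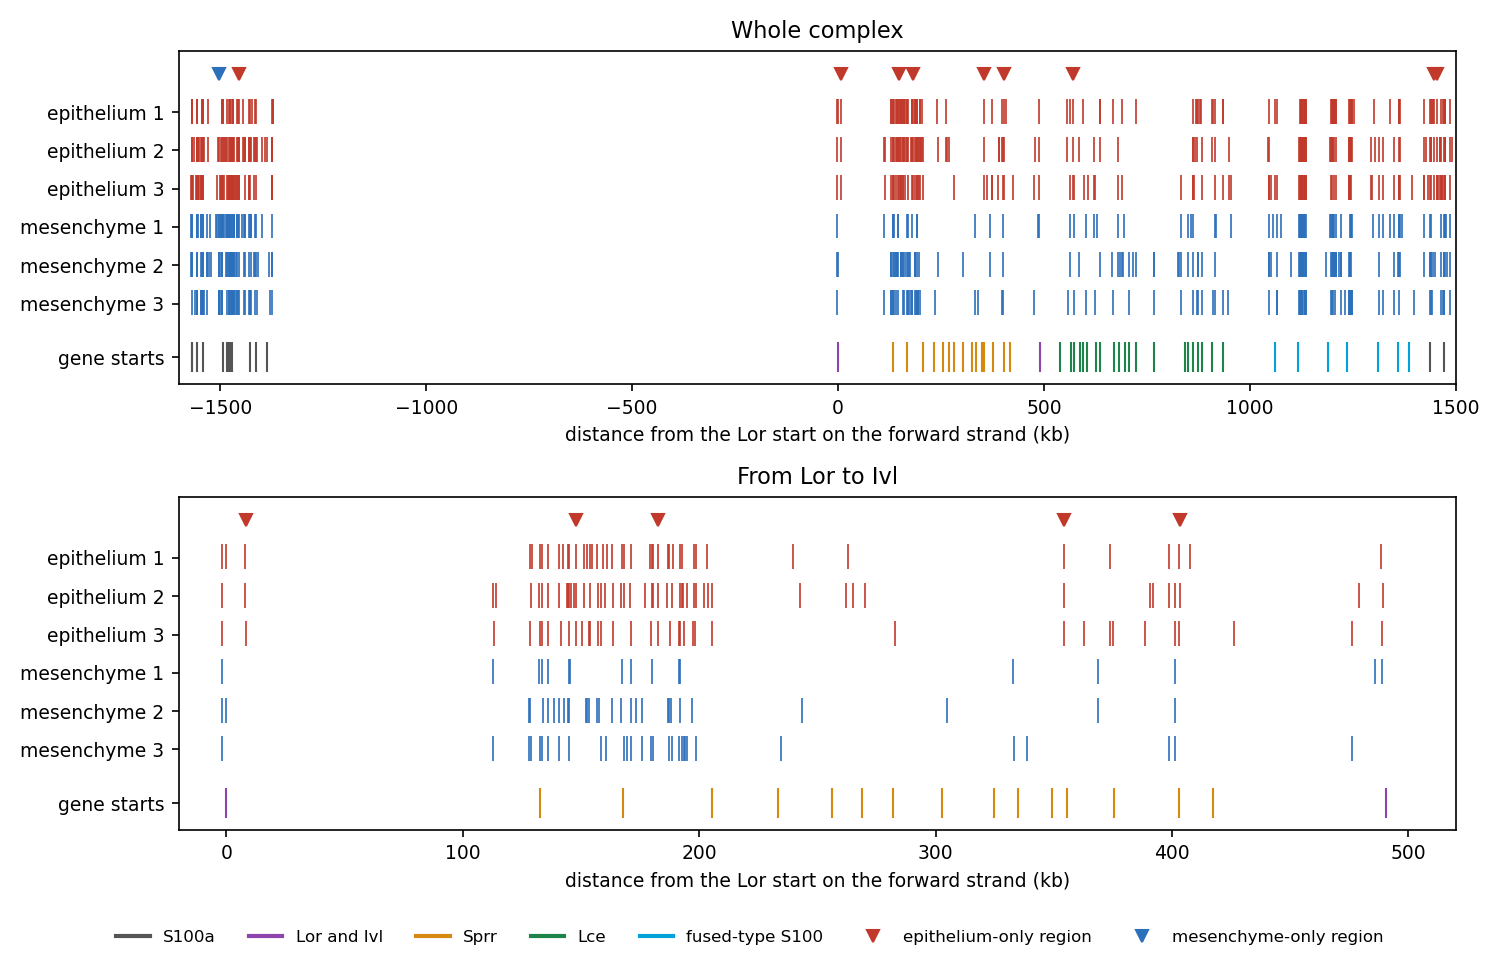
Midpoints of the peaks assigned to the genes (ticks, 1 row per library), the gene starts coloured by family, and triangles at the regions found in all libraries of one tissue and none of the other, by distance from the Lor start in kb; the lower panel enlarges the stretch from Lor to Ivl. Peaks are dense over Sprr2a1 to Sprr2a3 and sparse over the other Sprr2 genes in every library, and 9 red triangles stand beside 1 blue.

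Within the Sprr family the genes differed. Sprr1a, a cornified envelope precursor of stratifying epithelia, had 3, 5 and 2 peaks in epithelium and 1, 1 and 2 in mesenchyme, a log2 difference of 0.90 (SE 0.38; adjusted p = 0.376, limma). The raw counts met at 2 and the scaled counts did not overlap. Sprr1b, its closest relative, had 1, 1 and 2 peaks in epithelium and none in any mesenchyme library, and was too sparse to be tested. Sprr3, the main Sprr protein of oral and oesophageal lining, had 1, 0 and 3 against 1, 1 and 0, and Sprr4 had 1 peak in 1 epithelium library. Together these 4 neighbours had 5, 6 and 8 peaks in epithelium and 2 in each mesenchyme library.

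The Sprr2 genes split in another way. Sprr2a2 had 15, 14 and 9 peaks in epithelium and 3, 10 and 8 in mesenchyme (log2 difference 0.93, SE 0.32; adjusted p = 0.255, limma), the highest positive difference of the members tested. Sprr2a3 had 8, 10 and 7 against 2, 5 and 8 (0.82, SE 0.34; adjusted p = 0.363, limma), and Sprr2a1 had 10, 13 and 8 against 6, 9 and 8. The first mesenchyme library was low at all 3 genes, with 11 peaks in sum against 24 in each of the other two, and the epithelium libraries had 33, 37 and 24. Without that mesenchyme library (replicate 1) the log2 difference fell to 0.53 at Sprr2a2, below Sprr1a (0.83) and S100a10 (0.77), and to 0.43 at Sprr2a3. By contrast the other 8 Sprr2 genes had 2, 4 and 1 peaks in epithelium and 1, 2 and 3 in mesenchyme between them, and Sprr2i and Sprr2k had none at all. The stretch from Sprr2a1 to Sprr2a3 held 38.4 ± 7.62 scaled peaks per 100 kb in epithelium and 21.7 ± 7.94 in mesenchyme, and that from Sprr2b to Sprr2k 2.85 ± 1.01 and 2.50 ± 0.797.

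Sequence duplication bears on the first of these stretches. A 50-base stretch that occurs again in the complex or its flanks cannot be placed by a read of that length. In 30 of the 38 Sprr regions, or 78.9%, at least 50% of the 50-base words were repeated in this way. All 30 of these regions were assigned to Sprr2a1, Sprr2a2 or Sprr2a3, so a peak there may stem from reads of any of these copies. How far this moved their peak counts was not tested.

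The S100a genes lie at both ends of the complex, with S100a10 and S100a11 at the far end. S100a10, which binds annexin A2 at the plasma membrane, had 8, 10 and 10 peaks in epithelium and 6, 6 and 5 in mesenchyme, and was the only tested member whose raw counts did not overlap (log2 difference 0.68, SE 0.25; adjusted p = 0.300, limma). Raw counts lay wholly above in epithelium in 3.44% of all genes, and wholly above in mesenchyme in 6.54% of all genes and 0 of the 36 members. Non-overlap of scaled counts with epithelium above was seen in 5 of the 36 members tested, namely S100a9, S100a10, Sprr1a, Sprr2a1 and Sprr2a2, against 7.0% of all genes. With mesenchyme above it was seen in 1, S100a16, against 8.93%. S100a11, a binding partner of annexin A1 and a cornified envelope component, had 6, 6 and 7 peaks against 3, 7 and 3. The pair summed to 14, 16 and 17 peaks in epithelium and 9, 13 and 8 in mesenchyme.

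The 12 S100a genes at the near end had 33, 59 and 53 peaks in epithelium and 53, 46 and 46 in mesenchyme. S100a8 and S100a9 encode calprotectin, which is abundant in neutrophils and in stressed keratinocytes. S100a8 had 2, 4 and 2 peaks in each tissue. S100a9 had 3, 6 and 3 in epithelium and 2, 3 and 2 in mesenchyme. The 12 immune markers examined summed to 96.4 ± 2.47 scaled peaks in epithelium and 107 ± 4.55 in mesenchyme, and the part of immune cells in the S100a8 and S100a9 peaks was not tested. S100a14, an S100 protein of stratified epithelia, had 2, 6 and 7 against 3, 2 and 4. S100a16 had 5, 7 and 6 against 6, 8 and 9 (log2 difference -0.25), S100a3 had 1, 3 and 1 against 4, 3 and 1 (-0.42), and S100a5 had 1, 4 and 3 against 4, 4 and 2 (-0.27). S100a6 had 6, 9 and 10 against 9, 9 and 11, and S100a2 had 4, 6 and 9 against 10, 5 and 6. With 1 library left out the log2 difference ranged from -0.80 (without mesenchyme replicate 3) to -0.11 (without mesenchyme replicate 1) at S100a3 and from -0.35 (without mesenchyme replicate 1) to -0.14 (without mesenchyme replicate 3) at S100a16, and at S100a5 from -0.52 to 0.065, above 0 without epithelium replicate 1. Except for the scaled counts of S100a9 and S100a16, these groups overlapped, and none of these genes passed the test.

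The remaining extremes were small numbers of peaks. Lce3a had 0, 0 and 1 peaks in epithelium and 1, 3 and 1 in mesenchyme, the lowest log2 difference of the members tested (-0.97, SE 0.45; adjusted p = 0.420, limma). Lce1m, a late cornified envelope gene, had 2, 1 and 3 against 1, 0 and 2 (0.70). Hornerin, encoded by Hrnr, is a filaggrin relative and had 8, 6 and 5 against 5, 7 and 12 (-0.18). The groups overlapped for Lce1m and Hrnr, and those of Lce3a met at 1. With 1 library left out, Lce1m ranged from 0.26 (without mesenchyme replicate 2) to 1.04 (without mesenchyme replicate 3) and Hrnr from -0.42 to 0.12, above 0 without mesenchyme replicate 3. Lce3a ranged from -1.32 to -0.78, and fell below the filter without mesenchyme replicate 2.

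The other fused-type S100 genes had overlapping peak numbers in the tissues. Flg, which encodes profilaggrin, had 11, 7 and 4 peaks in epithelium and 8, 12 and 4 in mesenchyme. Flg2, its neighbour, had 14, 15 and 12 against 14, 15 and 14, the most peaks of any gene of the family. Crnn, which encodes the squamous epithelial protein cornulin, had 3, 2 and 5 against 4, 4 and 3. Their groups overlapped throughout. Rptn, which encodes the envelope protein repetin, had 1, 4 and 4 against 3, 1 and 2, and Tchh, which encodes trichohyalin of the hair root sheath and tongue papillae, had 5, 3 and 4 against 6, 4 and 2. Tchhl1 had 1 peak in 1 library of each tissue. At Flg, Flg2 and Hrnr only 2, 6 and 2 joined regions were present in at least 2 libraries. A peak count there rises where the caller splits a long stretch and falls where peaks join. How far this moved the counts of these genes was not tested.

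The second question was whether the promoters themselves were accessible. A peak covered the start in at least 2 libraries for 17 of the 59 members, or 28.8%, against 72.6% of all protein-coding genes. In 34 members, or 57.6%, no library had a peak over the start, against 23.1% of all genes. The families fell apart here. Of the 14 S100a genes 13 had a start peak in at least 2 libraries, and 7 of them (S100a1, S100a13, S100a14, S100a4, S100a6, S100a11 and S100a10) had it in all 6. S100a16, S100a3 and S100a8 had it in at least 4 libraries. Outside the S100a genes only 2 Sprr and 2 Lce genes reached 2 libraries, and 0 of the 7 fused-type S100 genes had a start peak in any.

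A start peak in every epithelium library and no mesenchyme library was found for S100a2 alone, 1 of 59 members. The share was 0.356% of all genes and 0.797% of those on chromosome 3. S100a2 is the mouse counterpart of a p63-regulated S100 protein of human basal epithelium. Within 500 bp of its start, mesenchyme replicate 1 also had a peak, so under that wider limit S100a2 no longer met the criterion and Sprr1a was the 1 member that did. Sprr1a came next, with a start peak in epithelium libraries 2 and 3 and no mesenchyme library. In epithelium library 1 the peak lay within 500 bp of the start without covering it. The RefSeq promoter window of Sprr1a overlapped a peak in 3 epithelium and 0 mesenchyme libraries, and no other of the 58 promoter windows of the complex did so. S100a2 had no such window. Lor had a start peak in 1 epithelium library, and Ivl, Flg, Flg2, Rptn, Hrnr, Tchh, Tchhl1, Crnn, Sprr1b, Sprr3 and Sprr4 had none in any library.

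**Figure D3:**
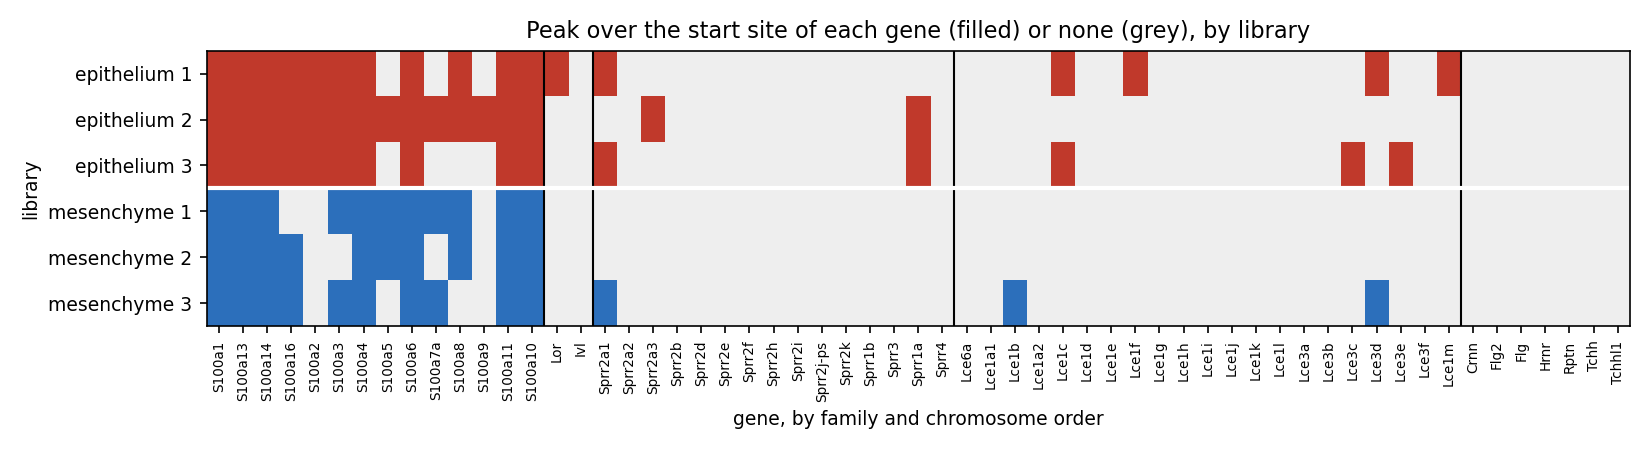
Presence of a peak over the start of each of the 59 genes (x axis, by family and chromosome order, families separated by black lines) in each of 6 libraries (y axis); filled cells have a peak, red in epithelium and blue in mesenchyme. Most cells of the S100a block at the left are filled in both tissues, with gaps at S100a5, S100a7a, S100a8 and S100a9 among others. The fused-type S100 block at the right is empty, and S100a2 is filled in the 3 epithelium rows only.

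The third question was which single sites were particular to a tissue. Peaks that overlapped between libraries were joined into regions, of which 152 were present in 2 or more libraries and fell to members. Of these, 9 regions, or 5.92%, had a peak in all 3 epithelium libraries and no mesenchyme library. This is above the 2.98% of all 342690 regions and the 2.54% of those assigned to a protein-coding gene, and close to the 5.13% of the regions of chromosome 3. One region, or 0.658%, had a peak in all 3 mesenchyme libraries and no epithelium library, against 2.2% of all regions, 2.15% of those assigned to a protein-coding gene and 2.49% of those on chromosome 3. The epithelium share of the complex was thus near that of its chromosome. In addition, 35 regions, or 23.0%, were found in all 6 libraries against 19.1% of all regions. With any 1 of the epithelium libraries left out, so that fewer libraries had to hold a peak, 16 regions were epithelium-only, and the number over the whole genome rose from 10206 to between 16145 and 20972. With mesenchyme replicate 1, 2 or 3 left out, 6, 3 or 5 regions were mesenchyme-only, and the number over the genome rose from 7554 to between 17454 and 20183. Without epithelium replicate 2 or 3, 3 were mesenchyme-only, against 13825 and 11872 over the genome.

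Of these 9 regions, 1 lay at a start. Its midpoint lay 415 bp upstream of the Sprr1a start, which it covered (chr3:92485814-92486806), and the peaks there were 712, 993 and 727 bp wide. The region shown above for Lor lay 8149 bp upstream of the Lor start between genes (chr3:92090934-92091648; 626, 505 and 715 bp wide). That of Sprr1b lay 1501 bp into the gene in its coding exon (chr3:92437054-92437523; 287, 199 and 464 bp wide), where the protein's proline-rich repeats are encoded. Among the Lce genes a single region, 2982 bp downstream of the Lce1b start (chr3:92653778-92654110), met the criterion, with narrow peaks of 199, 225 and 333 bp. The narrowest peaks in each of the lists were 199 bp wide, so 1 of the 3 peaks at Lce1b and 1 at Sprr1b had the smallest width the caller gave. The median width in the epithelium lists was 331 to 337 bp.

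The S100a genes held 3 of the 9 regions. The S100a6 region lay 16571 bp downstream of the start of S100a6, a calcium-binding protein also called calcyclin (chr3:90629156-90629751; 312, 393 and 443 bp wide). The S100a11 region lay 10180 bp downstream (chr3:93530257-93531080; 657, 500 and 238 bp wide), and the S100a10 region 16405 bp upstream (chr3:93538462-93538889; 301, 307 and 337 bp wide). All 3 lay between genes and contained no repeated 50-base words. The mesenchyme-only region lay in an intron 10513 bp upstream of the S100a2 start (chr3:90579456-90580012; 320, 460 and 371 bp wide). The region over the S100a2 start itself had a peak in 3 epithelium libraries and in mesenchyme replicate 1, where the peak was 465 bp wide and did not reach the start.

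The other 2 regions were copies of each other. One lay 15165 bp downstream of the Sprr2a1 start (chr3:92230572-92231356) and one 14996 bp downstream of the Sprr2a2 start (chr3:92265368-92266118). Of the 751 bases of the shorter region, 745, or 99.2%, were identical in the longer. Repeated 50-base words made up 94.2 and 95.3% of them, so these could be 1 site counted at both places. Without the regions in which at least 50% of the words were repeated, 7 of 111 regions, or 6.31%, were epithelium-only and 1 was mesenchyme-only.

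The interval also holds genes that are not members. Over the whole interval from S100a1 to S100a10, whichever gene a region was assigned to, 16 of 230 regions were epithelium-only (6.96%) and 1 mesenchyme-only (0.435%). In the rest of chromosome 3 the shares were 5.10 and 2.52%. Of the 19 other genes of the interval examined, none passed the limma test of peak numbers, and 3 (Pglyrp3, Them5 and Prr9) had more peaks in epithelium at an unadjusted p under 0.05. The median log2 difference over the 19 genes was -0.01, with 9 above 0 and 10 below. Pglyrp3, an antibacterial peptidoglycan recognition protein, had 5, 4 and 5 peaks in epithelium and 0, 3 and 0 in mesenchyme (log2 difference 1.90, adjusted p = 0.126, limma), and 2 epithelium-only regions. Its relative Pglyrp4 had 1, 2 and 4 against 2, 3 and 4 (-0.29). Them5, a thioesterase, had 3, 8 and 7 against 3, 1 and 2 and no epithelium-only region. Prr9, a proline-rich protein, had 2, 2 and 2 against 0, 2 and 0 and also 2 epithelium-only regions.

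Many peaks of the complex lay over protein-coding sequence. The midpoint fell in a coding exon in 32 of the 152 regions, or 21.1%, against 4.66% of all regions. Of the 29 Lce regions 15 did so, each assigned to a different Lce gene. Of these 15, 10 had a peak in only 2 libraries and 1 in all 6. Among the fused-type S100 genes, where nearly the whole protein is encoded by one long exon of tandem repeats, regions found in all 6 libraries spanned 9015 bp at Flg2, 10633 bp at Flg, 8158 bp at Hrnr and 4826 bp at Tchh. Repeated 50-base words made up 75.1, 89.9, 94.9 and 12.2% of these regions, respectively. At Hrnr and Tchh the midpoint lay in an annotated coding exon, and at Flg and Flg2 in an exon that the annotation does not mark as coding there. At Lor a region of 1922 bp over the coding exon was found in all 6 libraries and contained no repeated word, with 74% G and C in its centre. The exonic regions named at Flg2, Flg, Hrnr, Tchh and Lor were found in both tissues, while the starts of these genes had a peak in at most 1 library. Whether repeats or base composition moved the peak calls was not tested.

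**Figure D4:**
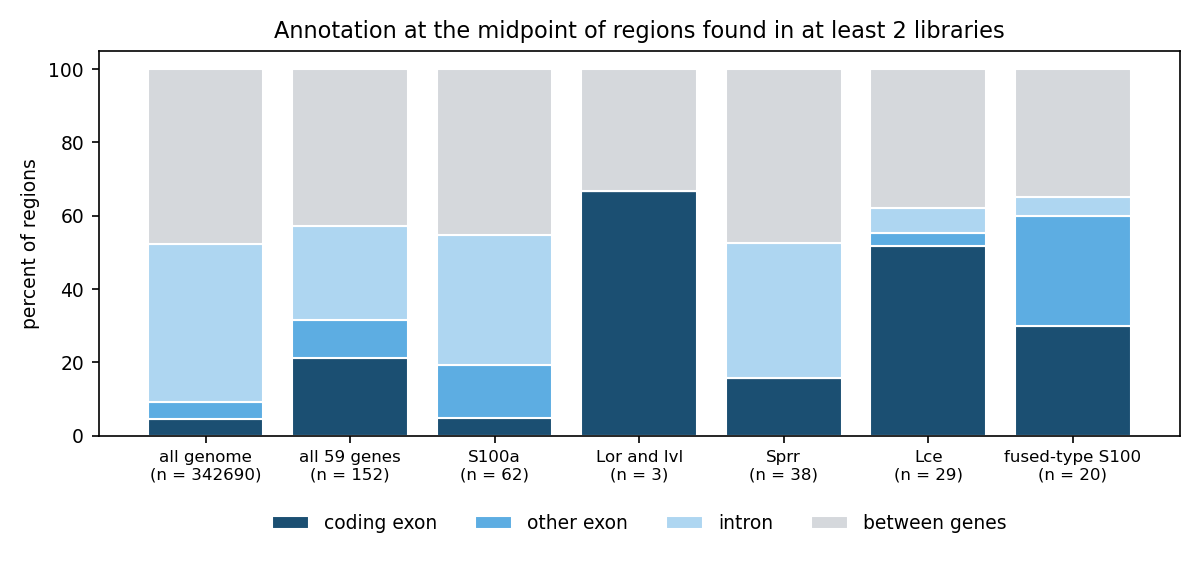
Percent of regions (y axis, 0 to 100) whose midpoint lies in a coding exon, another exon, an intron or between genes, for all regions of the genome, for the 59 genes and for each family (n regions below each bar). Coding exons take 4.66% of the genome's regions and 21.1% of those of the complex, with the Lce bar at 15 of 29.

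The last question was what the promoters share in sequence. RefSeq promoters, 250 bases before to 50 after the start, were matched for 54 of the 59 members and gave 58 windows, which were searched on both strands. The TATA box (TATAAA) was found in 24 of them, or 41.4%, against 13.6% of all 32851 promoters. The AP-1 motif (TGANTCA) was found in 18, or 31.0%, against 7.81%. The KLF motif (CCNCNCCC) went the other way, with 25.9% against 49.5%. The TFAP2 motif (GCCNNNGGC) was found in 8.62% against 16.6%, TEAD (GGAATG) in 19.0% against 14.7%, C/EBP (TTGCNNAA) in 10.3% against 10.8% and GRHL (AACCNGTT) in 5.17% against 2.09%. ETS (CCGGAAGT) and a p63-type pair of CATG sites had 0 matches in the complex. No motif of the set contains another, although matches can overlap. Many of these promoters arose by duplication and are similar in sequence, so they are not independent.

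The TATA box and the AP-1 motif occurred together in 14 of the 58 promoters, or 24.1%, against 1.54% of all promoters. These were 9 of the 14 Sprr promoters, 3 of the 7 fused-type S100 promoters and those of Lor and Ivl, and none of the 15 S100a or 20 Lce promoters. In 11 of the 14 no library had a peak in the window. Lor and Crnn had a peak in 1 epithelium library, and Sprr1a had one in 3. The POU or octamer motif (ATGCNAAT) was found in 7 promoters, 12.1% against 3.15%, and all 7 were those of Sprr2b, Sprr2d, Sprr2e, Sprr2f, Sprr2h, Sprr2i and Sprr2k. These 7 also held TATAAA and AP-1, as printed above for Sprr2d, and none had a peak in any library. By contrast the 15 S100a promoters overlapped a peak in at least 1 library without exception, and 9 of them in all 6. S100a3 and S100a16 gave more than 1 of these windows, and S100a2, S100a10 and S100a14 gave none.

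**Figure D5:**
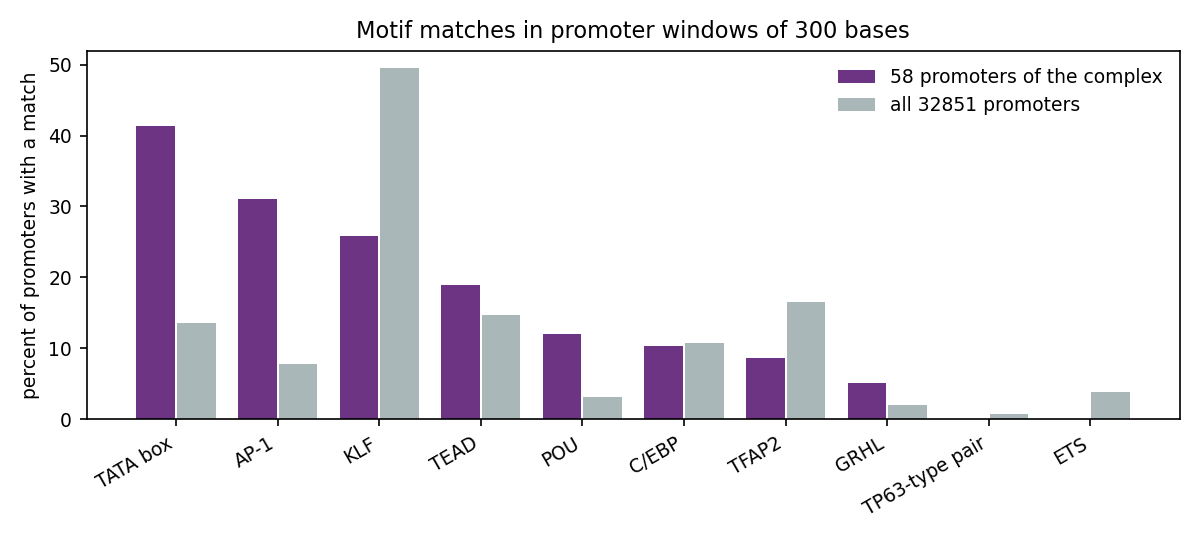
Percent of promoter windows of 300 bases with a match on either strand (y axis) for each motif (x axis), in the 58 promoters of the complex (purple) and in all 32851 promoters (grey). TATA box and AP-1 stand at 41.4 and 31.0% in the complex against 13.6 and 7.81%, and KLF at 25.9% against 49.5%.

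In the regions themselves AP-1 and GRHL matches were about as frequent as elsewhere. The central 200 bases of the 152 regions held an AP-1 match in 7.24%, against 6.18% of all regions, and a GRHL match in 1.97% against 1.55%. Across the genome the epithelium-only regions held AP-1 in 12.4% and GRHL in 3.78%, and the mesenchyme-only regions in 7.82 and 1.02%. Of the 9 epithelium-only regions of the complex, 2 held AP-1 and 1 held GRHL, with the S100a6 region holding both.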

How the data were processed

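ATAC-seq libraries of peeled palatal epithelium and of the remaining palate tissue were analysed (3 each). The authors used Trimmomatic 0.38 for trimming, Bowtie2 for alignment to mm10, SAMtools to sort and remove duplicates, a script of their own to keep nucleosome-free fragments under 100 bp, MACS2 2.1.1 for peaks and deepTools 2.0 for coverage tracks and replicate checks; the deposited lists are per library. The deposited files hold peak positions only, with no score or other measurement, and depth in reads is not recoverable from them. The steps are those of the published methods.

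From these lists, peaks were assigned to the nearest start of a protein-coding gene (GENCODE M21, GRCm38.p6), with 1 start per gene, the RefSeq-paired transcript where there was one. Scaled counts were list counts multiplied by the mean list length over the library's own. Genes averaging 1 peak or more were fitted with limma 3.58.1 (R 4.3.3; log2 of scaled peaks + 1, variance trend, no block, Benjamini-Hochberg over 19502 genes, threshold 0.05, two-sided). The fit was tested on simulated data, with large changes placed only at genes that averaged more peaks than any member. That test does not show whether smaller changes at genes as sparse as the members would be found. The replicates are described as biological, and p-values measure the spread between these pooled libraries. Merged regions joined peaks overlapping by at least 1 bp, and needed a peak in 2 libraries. A k-mer length of 50 was used for duplication. Motifs were searched in RefSeq promoters and in the central 200 bp of regions. Scripts used Python 3.11.15, pandas 2.3.3, numpy 2.4.6 and Biopython 1.88.

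The genes named were members past the threshold, those with a region in a single tissue, those with a start peak in at least 4 libraries, the 5 highest and 5 lowest log2 differences, and a standing list of 18 (Lor, Ivl, the fused-type S100 genes, S100a8, S100a9, S100a10, S100a11, S100a14, Sprr1a, Sprr1b, Sprr3 and Sprr4). Further Sprr2 genes, S100a13 and the genes Pglyrp3, Pglyrp4, Them5 and Prr9 were named after their values were seen. The smaller groups within the S100a and Sprr families were not among the planned families. Members and lists were chosen with earlier results of these data known. The labels do not say whether equal replicate numbers mark the same embryos. Deviations of same-numbered libraries had correlations of 0.0215, 0.0313 and -0.0016, which cannot show whether the libraries were paired.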

Additional observations from a re-analysis of the deposited data

How the results depend on the processing

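No member passed the limma test under any of the 14 alternatives to its settings, and the lowest adjusted p of any member under any of them was 0.130. The number of genes past the threshold across the genome was less stable. Those with more peaks in epithelium fell from 21 to 0 with no scaling, 0 with lists cut to equal length by the widest peaks, 13 with a pseudocount of 0.5 and 0 with the replicate block, and rose to 58 with a mean of at least 3 peaks. Those with fewer went from 6 to 0, 0, 3, 0 and 34 in the same order. Without 1 library each they ranged from 0 to 7 and from 0 to 1, with 0 higher without epithelium replicate 1 or 2. The replicate block is only a hint, since the labels do not say whether equal numbers mark a shared source.

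The mean sum over members stayed higher in epithelium in every alternative, by 24.2 to 32.1 peaks without 1 library and 21.3 to 33.8 otherwise (28.1 as reported). The difference of 21.3 was that without scaling, where the libraries of the tissues overlapped. Epithelium-only regions of members rose from 9 to 17 where 1 library of the other tissue was allowed a peak (over the genome from 10206 to 19434) and ranged from 11 to 16 without 1 library (16 without any 1 of the epithelium libraries). Mesenchyme-only regions rose from 1 to 4 (over the genome from 7554 to 20486) and to 2 with an overlap of 100 bp, and ranged from 1 to 6 without 1 library. Start peaks were found for 15 to 23 members. With RefSeq promoter windows, an alternative chosen after seeing the data like the removal of repeated regions, they were found for 15. Among the 10 largest and smallest log2 differences, the sign held in 130 of 134 refits. S100a5 turned to 0.14 with equal lists and ranged from -0.52 to 0.065 without 1 library, turning without epithelium replicate 1. Hrnr turned to 0.17 with all coding starts and ranged from -0.42 to 0.12 without 1 library, turning without mesenchyme replicate 3. Why these moved was not tested. Peak lists without scores limit all of these counts, since a site just under the caller's threshold is recorded as absent.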
